A study of Homo sapiens with 12 samples.

Results

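The IGF1 response described here is the difference between TMEM216 cells given IGF1 and TMEM216 cells without it. The cells are MDA231-LM2, a line selected from the human triple-negative breast cancer line MDA-MB-231 for its spread to the lung. Of 12 RNA-seq libraries in the series, the comparison uses 6, which are 3 labelled TMEM216 and 3 labelled TMEM216+IGF1. The other 6, labelled Ctrl and Ctrl+IGF1, give the response of Ctrl cells, which is set beside it. All libraries come from the same line, and the labels name no difference between groups beyond the population and IGF1. The labels give neither what was done to TMEM216 nor the construct or clone, and neither the dose nor the duration of IGF1. They also do not say whether the libraries of a group came from separate cultures, so a p-value here reflects only how these libraries scatter, which could be technical.

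The values are TPM, an abundance corrected for transcript length and scaled to the same total in each library. Of 21574 features in the table, 13071 were tested, which reached 1 TPM in at least 3 of the 12 libraries, 519 of them assembled features without a gene name. Changes are on the log2(TPM + 1) scale, which understates the change of low genes. Differences were tested with limma, and a feature was called where its p, adjusted by Benjamini-Hochberg over all tested features, was under 0.05. TPM carries no read count, so the depth of the libraries is unknown.

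The line's own markers were present. All 10 genes listed as typical of MDA-MB-231 cells were expressed, with VIM, vimentin, at 5920 to 7270 TPM over the 6 libraries. ESR1, the estrogen receptor, was at most 0.135 TPM, PGR, the progesterone receptor, at most 0.00934 TPM and CDH1, E-cadherin, at most 0.0996 TPM. ERBB2 stood at 31.7 to 36.7 TPM, EPCAM at 11.9 to 14.7 TPM and GATA3 at 5.8 to 7.77 TPM, although these had been listed as low in this line. PTPRC, which marks leukocytes, was at most 0.091 TPM. Of the same list, CD14 stood at 1.72 to 3.94 TPM and CSF1R at 0.72 to 2.14 TPM. CSF1R was higher in each library with IGF1 (log2 0.55, limma adjusted p = 0.838). The 11 immune markers summed to 3.68 to 5.44 TPM without IGF1 and 4.9 to 5.49 TPM with it. The 7 fibroblast markers summed to 41.5 to 45.0 TPM without IGF1 and 45.9 to 47.1 TPM with it. Nearly all of this came from COL1A1 (40.3 to 45.7 TPM over the 6 libraries). The 6 endothelial markers summed to 2.61 to 3.57 TPM without IGF1 and 3.69 to 4.24 TPM with it. For the fibroblast and endothelial sums the groups did not overlap, and these sums were not tested. Erythroid and adipocyte markers each summed to under 1 TPM. TMEM216 itself stood at 163, 222 and 250 TPM without IGF1 and at 232, 221 and 224 TPM with it, against 24.0 to 30.1 TPM in the Ctrl population (log2 change with IGF1 0.11, 95% interval -0.19 to 0.42, and -0.062 without TMEM216 replicate 1, the lowest of the 3).

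One library stood apart. On the first principal component of the 6 libraries, which held 38.4% of their variance, TMEM216 replicate 1 lay at -31.0 and the other 5 between -5.49 and 17.4. The share of TPM on ribosomal protein genes was 14.5% in that library and 12.8% to 13.2% in the other 5. Where leaving it out turned the sign of a list median or of a named gene's IGF1 response printed here, or moved it by over 1.5 times, the value without it is given as well.

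IGF1 binds the receptor tyrosine kinase IGF1R, which signals through the adaptor proteins IRS1 and IRS2 to PI3K, AKT and mTORC1 and through RAS to the kinase ERK. AKT keeps FOXO transcription factors out of the nucleus, mTORC1 raises translation and the synthesis of lipids, and ERK induces immediate early genes. Those genes, among them FOS and EGR1, are transcribed within minutes of a stimulus without new protein synthesis, and their transcripts are short-lived. FOS protein pairs with JUN proteins to form the transcription factor AP-1.

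FOS was the only gene with a name whose change with IGF1 was called in TMEM216 cells. It stood at 76.4, 59.6 and 56.7 TPM in the libraries without IGF1 and at 11.3, 10.0 and 11.7 TPM in those with it. Every library with IGF1 lay far below every library without it, and the spread with IGF1 was small. The means were 64.3 ± 10.6 and 11.0 ± 0.888 TPM (SD, n = 3 each), which is 5.82-fold lower with IGF1. On the log2 scale FOS fell by 2.43 (SE 0.11, 95% interval -2.67 to -2.19, limma adjusted p = 5.24e-07). The call held in all 22 alternative analyses, in which the change ranged from -2.52 to -2.30.

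In the Ctrl population FOS was higher to begin with and moved less. It stood at 108, 101 and 99.7 TPM without IGF1 and at 69.2, 66.8 and 60.5 TPM with it, a 1.57-fold lower mean. These libraries did not overlap either, but the change of -0.64 did not pass (adjusted p = 0.158). The difference between the populations in their IGF1 response was itself called, at log2 -1.79 (SE 0.15, 95% interval -2.12 to -1.45, limma adjusted p = 9.65e-04). Of the TMEM216 libraries without IGF1, 1 lay above and 2 lay below the range of the Ctrl libraries with IGF1.

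**Figure D1:**
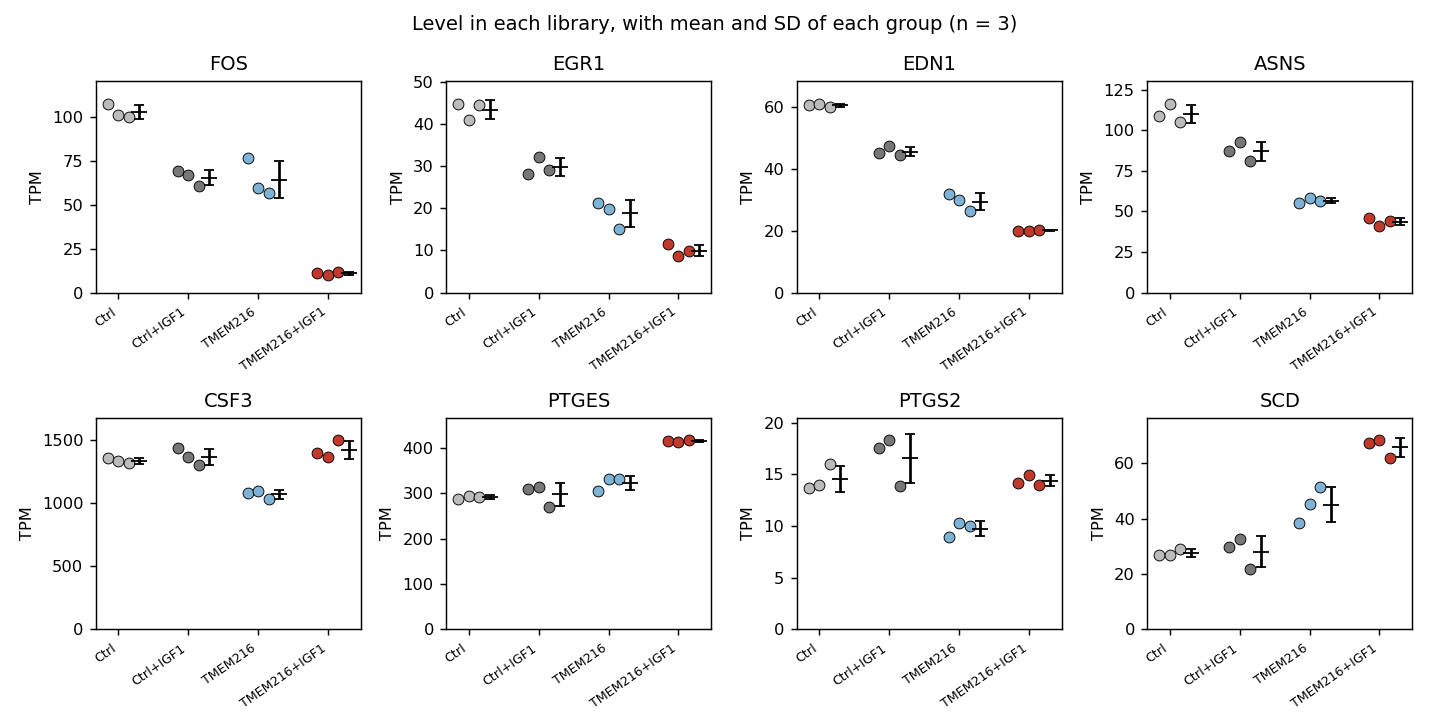
Level of 8 genes in TPM (y axis from 0) in each of the 12 libraries, by group; dots are libraries, the dash is the group mean and the bar its SD (n = 3). FOS at 10.0 to 11.7 TPM in TMEM216+IGF1 libraries lay below all other libraries, while EGR1, EDN1 and ASNS were lower and CSF3, PTGES, PTGS2 and SCD higher in each TMEM216+IGF1 library than in each TMEM216 library, without passing the adjusted threshold.

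The promoters of FOS and EGR1 are shown because these are the immediate early genes of smallest p. Each is the 250 bases before the start of transcription, from RefSeq on build GRCh38.p14, 5′ to 3′ on the gene's strand. FOS lies at chr14:75278578-75278827, plus strand, with its TATA box in capitals. EGR1 lies at chr5:138465229-138465478, plus strand, with 2 matches to the CArG box in capitals, the element bound by serum response factor. EGR1 and the search for these elements were chosen after the values were seen.
FOS: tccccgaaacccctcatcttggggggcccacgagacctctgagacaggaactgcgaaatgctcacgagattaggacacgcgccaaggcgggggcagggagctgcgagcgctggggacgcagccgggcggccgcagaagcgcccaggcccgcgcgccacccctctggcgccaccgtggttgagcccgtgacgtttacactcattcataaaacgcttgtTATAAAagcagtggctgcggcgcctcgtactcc
EGR1: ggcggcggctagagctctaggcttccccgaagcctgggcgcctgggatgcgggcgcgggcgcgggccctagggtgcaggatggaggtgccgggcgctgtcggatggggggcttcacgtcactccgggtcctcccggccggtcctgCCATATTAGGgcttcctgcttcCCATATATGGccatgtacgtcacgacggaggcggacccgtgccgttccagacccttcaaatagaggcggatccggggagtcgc

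The TATA box of FOS, TATAAA on the gene's strand, lies 33 to 28 bases before the start, and 7.17% of 27305 promoters of this length hold one. The CArG matches of EGR1 lie 105 to 96 and 83 to 74 bases before the start, and 1.14% of promoters hold such a match. Neither promoter holds the SREBP motif TCACCCCAC (0.348% of promoters), the FOXO motif TGTTTAC (2.98%), the AP-1 motif TGANTCA (6.6%), the E-box CACGTG (6.49%), the cyclic AMP response element TGACGTCA (1.77%) or the ATF4 motif TGATGNAAN (3.18%), searched on both strands. Among the promoters of 10110 tested genes the shares were 3.64% for the TATA box and 1.04% for the CArG box. They were 0.366% for SREBP, 1.99% for FOXO, 3.72% for AP-1 and 8.97% for the E-box. The cyclic AMP response element stood at 2.97% and the ATF4 motif at 1.33%. All matches are exact matches of letters within this window only, so a variant of a motif or a site further out would not be found. The FOS window holds tgacgttt, for instance, which was not counted as a match to TGACGTCA. FOS had no CArG match within this window, and sites further from the start were not searched.

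Across all features the response was small. The called features were 2, which is 0.0153% of those tested. Both were lower with IGF1, and no rise passed. The median log2 change was 0.018, and no more than 1% of features lay below -0.53 and 1% above 0.54. Unadjusted p was under 0.05 for 402 features that were higher with IGF1, which is 3.08% of all, and for 222 that were lower, which is 1.7%. Together these are 624 features, or 4.77%, close to the share of 0.05 that this threshold lets through where nothing changes. The 3 libraries with IGF1 lay wholly above the 3 without it for 857 features (6.56%) and wholly below for 482 (3.69%). A change of at least 1 on the log2 scale was seen for 70 features, 34 higher and 36 lower. Among the 2011 features with a mean of at least 100 TPM, a change of at least 0.5 was seen in 5, which were FADS2, CDC42, SKP1, TOMM6 and DBNDD2, and none of them was called. Without TMEM216 replicate 1, FADS2 stood at 0.22, SKP1 at 0.36 and DBNDD2 at -0.39, below that size. CDC42 then stood at 0.94 and TOMM6 at -0.58. The median standard error was 0.13, which limits how small a change these libraries could show.

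**Figure D2:**
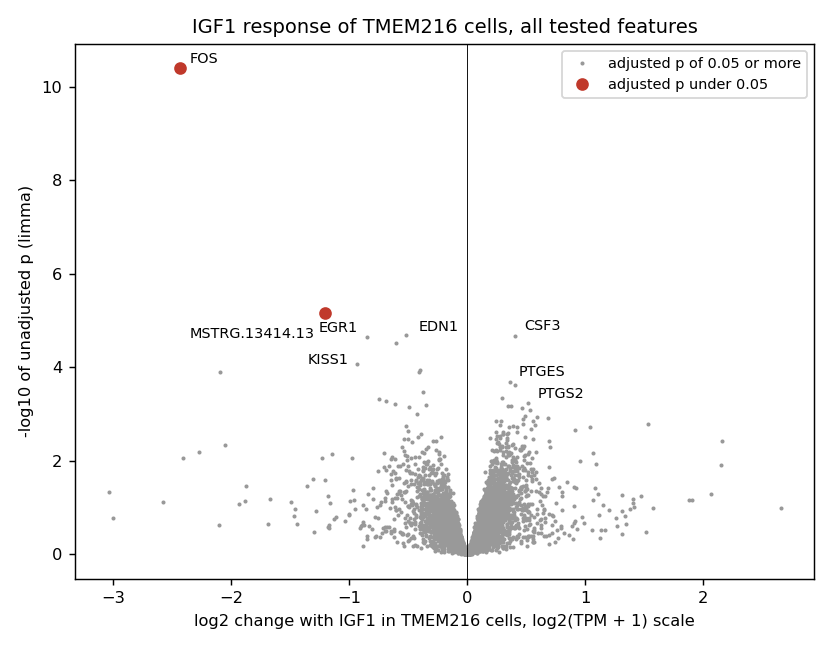
Each point is one of 13071 tested features, with the log2 change with IGF1 in TMEM216 cells on the x axis and -log10 of the unadjusted limma p on the y axis; the 2 red points have an adjusted p under 0.05. FOS at -2.43 stands away from all other features, and MSTRG.13414.13 is the other called feature.

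The other called feature, MSTRG.13414.13, is an assembled feature without a gene name. It was named after its values were seen, since the naming rule leaves out such features. Its level was 4.78, 4.02 and 4.14 TPM without IGF1 and 1.49, 0.994 and 1.48 TPM with it, and it fell by 1.20 (SE 0.16, limma adjusted p = 0.0447). A further feature of the same assembled locus, MSTRG.13414.14, went the other way, from 2.44, 2.85 and 2.78 TPM to 7.40, 6.75 and 5.75 TPM (log2 1.04, adjusted p = 0.595). Summed, the pair of features stood at 6.86 to 7.22 TPM without IGF1 and 7.23 to 8.89 TPM with it, and all 4 tested features of the locus summed to 10.2 to 12.4 TPM and 11.4 to 13.9 TPM. The call of MSTRG.13414.13 was lost in 15 of 21 alternative analyses, among them those without any 1 library of the TMEM216 population.

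Below the threshold, 4 features had an adjusted p between 0.05 and 0.1. EGR1, a zinc finger transcription factor of the immediate early class, stood at 21.3, 19.9 and 15.2 TPM without IGF1 and at 11.4, 8.77 and 9.76 TPM with it (log2 -0.84, SE 0.13, limma adjusted p = 0.0587). EDN1, the precursor of the vasoactive peptide endothelin 1, stood at 31.8, 29.8 and 26.5 TPM and then at 19.9, 20.1 and 20.3 TPM (log2 -0.52, adjusted p = 0.0587). FAM24B went from 14.3, 12.9 and 13.9 TPM to 8.85, 8.35 and 8.92 TPM (log2 -0.60, adjusted p = 0.066). All 3 were lower in each library with IGF1 than in each without it. CSF3, the granulocyte colony-stimulating factor, went the other way, from 1080.3, 1091 and 1027 TPM to 1392, 1360.5 and 1493 TPM (log2 0.41, SE 0.061, adjusted p = 0.0587).

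These genes lay close enough to the threshold for the analysis to move them across it. EGR1 passed in 3 of 22 alternatives, with an adjusted p as low as 0.0115 without TMEM216 replicate 3, and CSF3 in 3, with an adjusted p of 0.0457 without Ctrl+IGF1 replicate 3. Their changes kept their sign throughout, between -0.98 and -0.75 for EGR1 and between 0.37 and 0.44 for CSF3. EDN1 and FAM24B were named after their values were seen. In Ctrl cells EGR1 and EDN1 moved the same way, by -0.53 and -0.40, and CSF3 stood at 0.034. The difference between the populations did not pass for any of the 4 (adjusted p = 0.754 for EGR1 and CSF3).

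After CSF3, the naming rule gives the 4 next genes that were higher with IGF1, by their p. PTGES, the enzyme that makes prostaglandin E2 in its last step, stood at 306, 331 and 333 TPM without IGF1 and at 416, 414 and 417 TPM with it (log2 0.36, SE 0.069, limma adjusted p = 0.238). CALB2, the calcium-binding protein calretinin, stood at 49.3, 44.6 and 45.7 TPM and then at 63.9, 59.9 and 62.2 TPM (log2 0.41, adjusted p = 0.262). IL6, an inflammatory cytokine, stood at 95.6, 93.7 and 89.3 TPM and then at 114.8, 111.7 and 115.5 TPM (log2 0.29, adjusted p = 0.415). PTGS2, the inducible cyclooxygenase, stood at 8.90, 10.3 and 9.98 TPM and then at 14.2, 14.96 and 13.9 TPM (log2 0.52, adjusted p = 0.425). The groups did not overlap for any of these genes, yet none passed. PTGES passed in 1 alternative, without Ctrl+IGF1 replicate 3 (adjusted p = 0.0457). IL6 overlaps STEAP1B on the opposite strand, and no source used here tells whether strand was kept, so its value is uncertain. The same holds for B9D1, BOC, CCND1, CEP290, ETV4, FADS2, HSP90B1, IFIT1, IFT20 and SLC16A3, named further on, and for ERBB2, named above. Each overlaps another tested gene on the opposite strand, and FADS2 also overlaps FEN1 on the same strand. Overlaps were searched only for genes that the naming rule gives. Genes named outside it, such as EDN1, FAM24B, KISS1, EPAS1, PLLP and SRSF1, were not searched.

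Gene lists are described below by how many tested members had an unadjusted p under 0.05 or groups that did not overlap, and by their median change. The shares of all features given above, 3.08% and 6.56% upward and 1.7% and 3.69% downward, are the background for these counts. Apart from FOS, no member of any list was called.

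Immediate early genes other than FOS and EGR1 showed smaller changes, none of them called. Of 27 tested members, 4 had an unadjusted p under 0.05 and were lower, and none was higher. Besides FOS and EGR1 these were FOSB, a paralogue of FOS, and GADD45B, a stress-response gene. FOSB stood at 1.61, 1.74 and 1.44 TPM without IGF1 and at 0.79, 1.02 and 0.603 TPM with it (log2 -0.53, SE 0.16, limma adjusted p = 0.784). GADD45B stood at 83.7, 85.9 and 76.4 TPM and then at 69.3, 65.4 and 73.4 TPM (log2 -0.24, adjusted p = 0.844). Of the other AP-1 subunits, JUN stood at -0.03, JUNB at -0.13, JUND at 0.034, FOSL1 at -0.16 and FOSL2 at 0.25. These 5 stood, without TMEM216 replicate 1, at -0.0059, -0.073, 0.16, -0.025 and 0.13. MYC, which drives growth genes, was at 117 to 127 TPM with IGF1 and 112 to 131 TPM without it (log2 0.0055, 95% interval -0.19 to 0.20, and -0.057 without TMEM216 replicate 1).

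FOSB began at different levels in the 2 populations. In Ctrl cells FOSB was called, from 9.83, 7.86 and 8.41 TPM to 2.58, 4.14 and 2.88 TPM (log2 -1.22, limma adjusted p = 0.0386), while in TMEM216 cells it began near 1.60 TPM. The difference for FOSB, 0.69, did not pass (adjusted p = 0.754). FOSB overlaps ERCC1 on the opposite strand, so its value is uncertain.

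Genes that ERK induces and that feed back on it, such as the DUSP phosphatases and the Sprouty proteins, had a median of 0.10 over 23 tested members, 18 of them above 0. Of all tested features, 56.1% were above 0. DUSP1 was lower, at 48.4, 58.9 and 59.7 TPM without IGF1 and 48.0, 48.7 and 44.9 TPM with it (log2 -0.23, limma adjusted p = 1.0). ETV4, an ETS factor downstream of ERK, was at 73.6, 82.1 and 97.8 TPM and then at 94.5, 102 and 95.9 TPM (log2 0.21, or 0.12 without TMEM216 replicate 1). In both genes the groups overlapped. The groups did not overlap for 5 members, all higher, including PHLDA1 (0.12), SPRED2 (0.16) and SPRY1 (0.19). Without TMEM216 replicate 1 SPRY1 stood at 0.081, and the median of the list was 0.039.

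**Figure D3:**
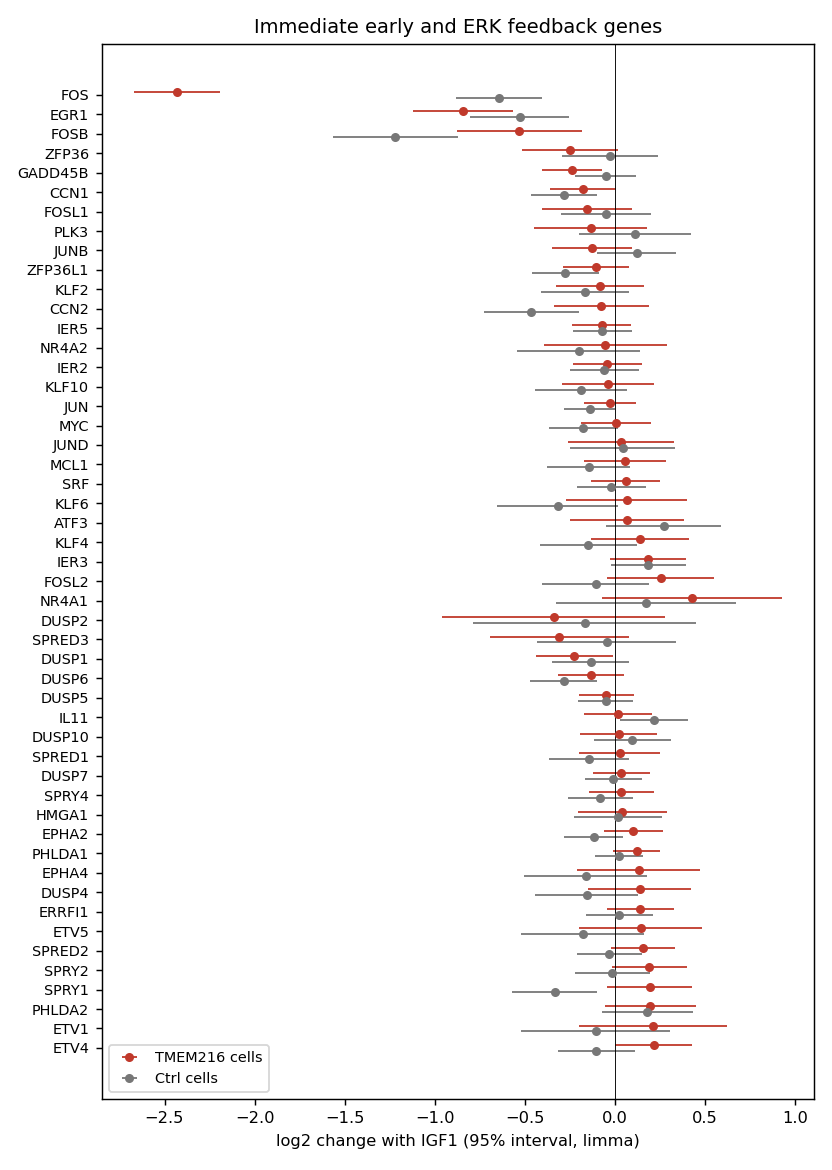
The log2 change with IGF1 (x axis) and its 95% limma interval for all 50 tested immediate early and ERK feedback genes (y axis), in TMEM216 cells (red) and Ctrl cells (grey). FOS in TMEM216 cells, at -2.43, is far below every other gene of these lists, and most other intervals include 0.

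Components that receive the IGF1 signal showed no called change. IGF1R, the receptor, stood at 8.91, 11.3 and 10.7 TPM without IGF1 and at 10.0, 9.92 and 9.18 TPM with it (log2 -0.074, 95% interval -0.36 to 0.21, and -0.17 without TMEM216 replicate 1). INSR, the insulin receptor, was at 3.20 to 3.90 TPM and then at 2.65 to 3.32 TPM (log2 -0.16). IRS1 was at 23.8 to 32.03 TPM and then at 26.5 to 31.4 TPM (log2 0.085, or -0.016 without that library), and IRS2 at 7.19 to 8.86 TPM and then at 6.56 to 8.25 TPM (log2 -0.14, or -0.22 without it). The groups overlapped in each of these genes.

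Among binding proteins, which hold IGF1 outside the cell, 2 went in opposite directions. IGFBP4, the more abundant, stood at 928, 930.5 and 955 TPM without IGF1 and at 1062, 1071 and 1083 TPM with it (log2 0.19, SE 0.053, limma adjusted p = 0.705). IGFBP3 stood at 68.3, 66.6 and 59.4 TPM and then at 54.6, 54.7 and 56.7 TPM (log2 -0.22, adjusted p = 0.864). Of the 24 tested members of the IGF list these were the only ones with an unadjusted p under 0.05, and the list's median was -0.025, or -0.041 without TMEM216 replicate 1. Among 22 components of the mTORC1 pathway the smallest p was that of DDIT4, an inhibitor of mTORC1, at 137, 142 and 121 TPM and then at 176, 160 and 174 TPM (log2 0.35, adjusted p = 0.425).

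FOXO targets, which AKT activity holds down, and ATF4 targets, which serve amino acid supply, had medians of 0.017 each, beside 0.018 for all features. Without TMEM216 replicate 1 the medians were -0.022 for FOXO targets, -0.043 for ATF4 targets and -0.0027 for all features. Of 28 tested FOXO genes, KLF15, a metabolic transcription factor, was lower (1.96 to 2.85 TPM, then 1.15 to 1.47 TPM, log2 -0.50) and TNFSF10, the death ligand TRAIL, higher (0.699 to 1.64 TPM, then 1.77 to 2.11 TPM, log2 0.55), and neither passed. Of 38 ATF4 genes, ASNS, asparagine synthetase, had the smallest p. It stood at 55.2, 58.4 and 56.7 TPM without IGF1 and at 45.8, 41.4 and 44.0 TPM with it (log2 -0.37, SE 0.075, limma adjusted p = 0.343). PHGDH, the first enzyme of serine synthesis, stood at -0.16, and ATF4 itself at -0.059, or -0.037 without TMEM216 replicate 1. In Ctrl cells ASNS stood at -0.34, so the 2 responses lay 0.033 apart (adjusted p = 0.922).

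Lipid synthesis genes had medians above that of all features, which came nearer to it without 1 library. SCD, which desaturates fatty acids, stood at 38.5, 45.4 and 51.3 TPM without IGF1 and at 67.3, 68.3 and 61.9 TPM with it (log2 0.54, SE 0.14, limma adjusted p = 0.64). FADS2, a further desaturase, stood at 82.7, 139 and 163 TPM and then at 169, 192 and 167 TPM (log2 0.51, adjusted p = 1.0). TMEM216 replicate 1 was the lowest library, and without it the change was 0.22. Of 21 fatty acid genes 17 were above 0, with a median of 0.096, or 0.041 without TMEM216 replicate 1. Of 26 cholesterol genes 21 were above 0, with a median of 0.11, or 0.011 without that library. DHCR7, the last enzyme of cholesterol synthesis, stood at 47.0, 58.9 and 57.7 TPM without IGF1 and at 67.2, 66.8 and 61.1 TPM with it (log2 0.26, limma adjusted p = 1.0, or log2 0.15 without TMEM216 replicate 1).

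Glycolysis and hypoxia genes also had medians above that of all features, with no member called. Of 23 glycolysis genes, 4 had an unadjusted p under 0.05 and were higher, which are LDHA, lactate dehydrogenase A (log2 0.24), SLC16A3, a lactate exporter (0.19), SLC2A3, a glucose transporter (0.34) and PFKFB3, which makes an activator of phosphofructokinase (0.26). LDHA stood at 2245, 2671 and 2665 TPM without IGF1 and at 2948, 3130.1 and 2869 TPM with it. Without TMEM216 replicate 1 the change of LDHA was 0.16 and that of PFKFB3 0.16, and the median of the list, 0.10 with all libraries, was 0.054.

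Of 24 hypoxia genes, 6 had an unadjusted p under 0.05 and were higher and 1 was lower, and 11 had all libraries with IGF1 above those without it. NDRG1, a growth arrest gene induced by low oxygen, stood at 26.4, 39.7 and 44.5 TPM and then at 52.7, 57.7 and 50.9 TPM (log2 0.56, limma adjusted p = 0.705, or log2 0.35 without TMEM216 replicate 1). BHLHE40, a circadian repressor, stood at 25.2, 28.9 and 24.6 TPM and then at 33.2, 34.6 and 32.7 TPM (log2 0.34). EPAS1, the hypoxia-inducible factor 2 alpha, stood at 0.40, or 0.26 without that library. The exception was ADM, the peptide adrenomedullin, at 205, 195 and 173 TPM without IGF1 and 141, 139 and 149.7 TPM with it (log2 -0.41, adjusted p = 0.166). The list's median was 0.19, or 0.17 without TMEM216 replicate 1.

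Genes of the secretory pathway and of inflammation followed, again with no member called. Of 25 endoplasmic reticulum chaperones and unfolded protein response genes, 8 had an unadjusted p under 0.05, all higher. HSPA5, the chaperone BiP, stood at 364, 411 and 402 TPM without IGF1 and at 482, 515 and 486 TPM with it (log2 0.33, SE 0.097, limma adjusted p = 0.752), and HSP90B1 and CALR stood at 0.26 and 0.21. The median was 0.16, or 0.096 without TMEM216 replicate 1.

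Of 26 cytokine and NF-kB target genes, 9 had an unadjusted p under 0.05, all higher, and 11 had groups that did not overlap upward. Besides CSF3, IL6 and PTGS2 the leading member was CXCL8, a chemokine for neutrophils, at 281, 275 and 289 TPM and then at 336, 342 and 325 TPM (log2 0.25, limma adjusted p = 0.582). The median was 0.18, and 0.17 without TMEM216 replicate 1. Of 11 prostaglandin genes 3 had an unadjusted p under 0.05, which were PTGES, PTGS2 and PLA2G4A, the phospholipase that releases arachidonic acid, at 8.21, 8.70 and 8.74 TPM and then at 11.5, 13.2 and 12.2 TPM (log2 0.48, adjusted p = 0.778). The 3 enzymes act one after another on the way to prostaglandin E2.

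Interferon response and MHC class I genes had a median of 0.12 over 31 members, of which 9 had an unadjusted p under 0.05, all higher. OASL, an antiviral protein, stood at 42.8, 37.0 and 37.6 TPM without IGF1 and at 59.7, 50.5 and 53.5 TPM with it (log2 0.47, limma adjusted p = 0.425). TAP1, which carries peptides to MHC class I, stood at 0.35 and IFIT1 at 0.25. In Ctrl cells OASL stood at 0.44, a like value, while TAP1 stood at -0.09. TAP1 overlaps PSMB9 on the opposite strand.

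Growth and division genes had medians near that of all features. CCND1, cyclin D1, stood at 358, 423 and 444 TPM without IGF1 and at 399, 416 and 404 TPM with it (log2 -0.0017, 95% interval -0.23 to 0.23, and -0.093 without TMEM216 replicate 1). The medians were 0.00057 for 26 cyclins, CDKs and CDK inhibitors, -0.02 for 29 G1/S genes, 0.0012 for 30 G2/M genes and 0.0033 for 30 ribosome biogenesis and MYC targets. Leaving out TMEM216 replicate 1 gave -0.062, -0.11, -0.054 and -0.027. CDKN1A, the CDK inhibitor p21, had the smallest p of the 26 cyclins, CDKs and CDK inhibitors, at 55.3, 67.4 and 76.4 TPM and then at 83.4, 92.7 and 77.4 TPM (log2 0.35, limma adjusted p = 0.807, or log2 0.23 without TMEM216 replicate 1).

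Cytoplasmic ribosomal protein genes depended on 1 library. Of 77 members 62 were below 0, with a median of -0.068, and 8 had all libraries with IGF1 below those without it. Without TMEM216 replicate 1, of the 6 libraries the one with the highest ribosomal share, the median was 0.0032. SR splicing factors likewise had a median of -0.083 over 17 members, or -0.019 without that library.

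Genes of adhesion and spread were described since the line was selected for metastasis to the lung. Of 22 tested genes of the lung metastasis list, 4 had an unadjusted p under 0.05, all higher, which were PTGS2, the matrix protein TNC (log2 0.37), the guidance receptor ROBO1 (0.34) and KYNU, an enzyme of tryptophan breakdown (0.78), and the list's median was 0.15, or 0.12 without TMEM216 replicate 1. KYNU stood at 25.2, 58.0 and 62.3 TPM without IGF1 and at 90.4, 70.4 and 74.2 TPM with it. TMEM216 replicate 1 was the lowest, and without it the change was 0.37. KISS1, which encodes a peptide known as a suppressor of metastasis, was named after its values were seen, and stood at 39.1, 32.03 and 29.8 TPM without IGF1 and at 15.4, 15.01 and 21.6 TPM with it (log2 -0.93, limma adjusted p = 0.161). It stood at -0.60 in Ctrl cells.

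YAP and TEAD targets had a median of -0.066 over 24 members, of which 18 were below 0. The median was -0.14 without TMEM216 replicate 1. ANKRD1, a strongly YAP-dependent gene, stood at 365, 360.5 and 336 TPM without IGF1 and at 303, 299 and 306 TPM with it (log2 -0.22, limma adjusted p = 0.705), and at -0.22 in Ctrl cells too. Of 25 integrin and focal adhesion genes only ITGA5, the fibronectin receptor subunit, had an unadjusted p under 0.05 (log2 0.28, or 0.18 without TMEM216 replicate 1).

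TMEM216 protein belongs to the ciliary transition zone, the gate at the base of the primary cilium, a compartment in which Hedgehog signals are read. No gene of this structure was called. The median was 0.003 over 23 transition zone genes and -0.0056 over 33 genes of intraflagellar transport and the BBSome. Leaving out TMEM216 replicate 1 gave -0.025 and -0.0495. CEP290, a scaffold of the transition zone, stood at -0.31, or -0.14 without that library, and B9D1, a further transition zone protein, at 0.29, with overlapping groups. Of the transport and BBSome genes 3 had an unadjusted p under 0.05 and were higher, which were DYNC2H1 (0.28), IFT22 (0.28, or 0.13 without that library) and TRAF3IP1 (0.21), and 1 was lower. That was IFT20, which stood at 48.4, 43.2 and 38.4 TPM without IGF1 and at 34.0, 37.0 and 34.7 TPM with it (log2 -0.29, limma adjusted p = 0.906). Of 10 tested Hedgehog genes, BOC, a co-receptor, and SUFU, an inhibitor of GLI factors, had an unadjusted p under 0.05, at 0.29 and 0.26, and the list's median was 0.13, or 0.041 without TMEM216 replicate 1.

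**Figure D4:**
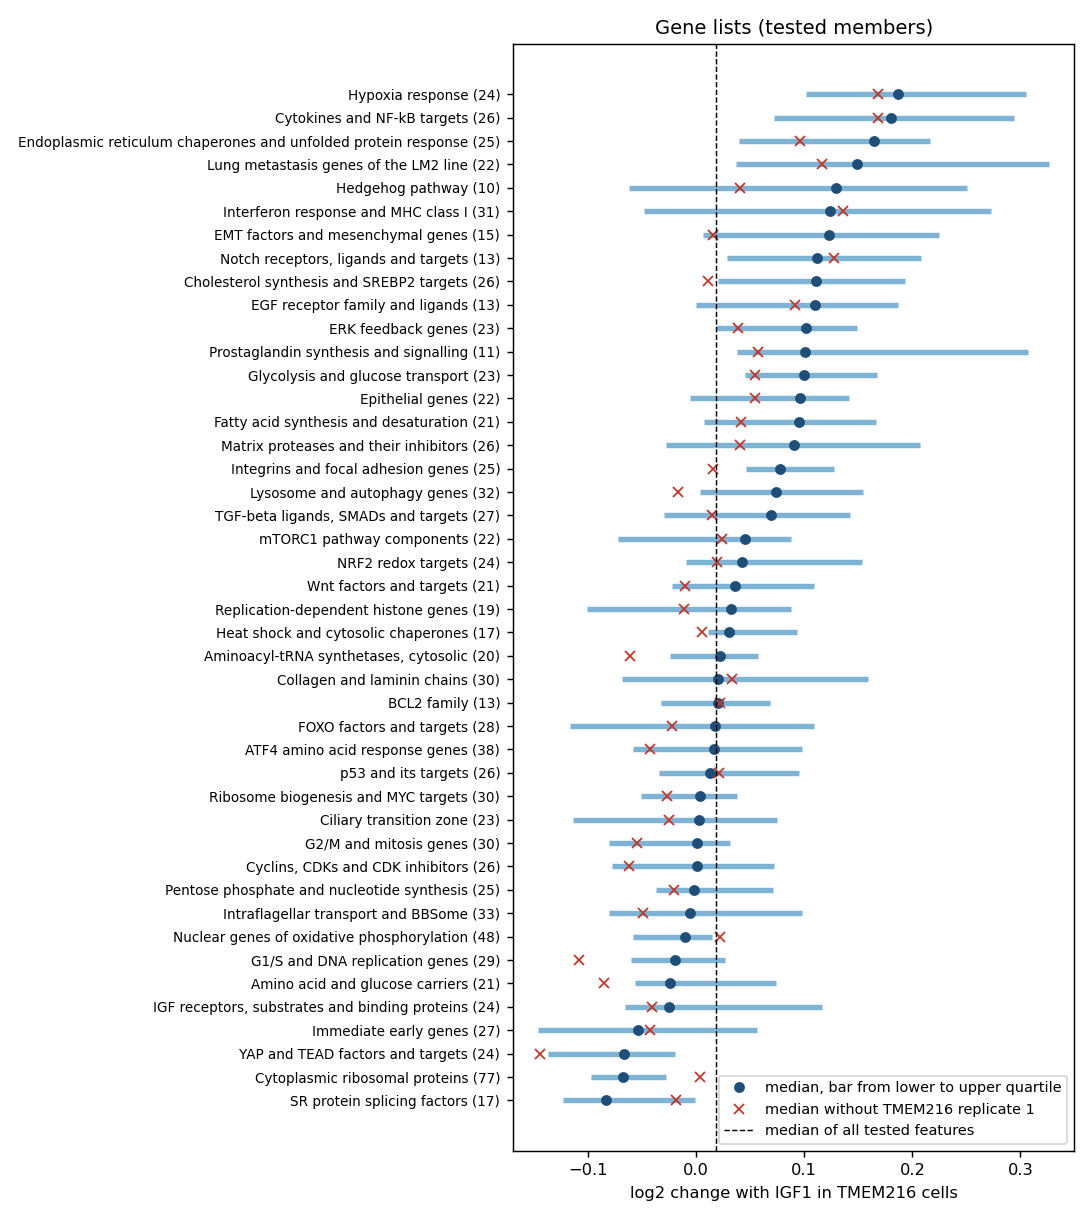
Median log2 change with IGF1 in TMEM216 cells (dot, with a bar from lower to upper quartile) for each gene list (y axis, tested members in parentheses), beside the median of all features, 0.018 (dashed line). Crosses give the median without TMEM216 replicate 1; hypoxia and cytokine lists stay near 0.17, while the ribosomal protein list goes from -0.068 to 0.0032.

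The response was then set beside that of Ctrl cells by the test of the difference. In Ctrl cells 4 features were called (0.0306% of those tested), all lower with IGF1, which were FOSB, the myelin-type membrane protein PLLP, the splicing factor SRSF1 and ENSG00000273049. In TMEM216 cells PLLP stood at 5.62 to 6.38 TPM without IGF1 and at 6.15 to 7.49 TPM with it (log2 0.20), and SRSF1 at 141 to 184 TPM and 144 to 170 TPM (log2 -0.057, or -0.16 without TMEM216 replicate 1). The difference was called for 2 features (0.0153%), FOS and ENSG00000273049, and not for PLLP (1.18, limma adjusted p = 0.217) or SRSF1 (0.87, adjusted p = 0.673). ENSG00000273049 was listed at 0 in all 6 libraries of the TMEM216 population and in the 3 labelled Ctrl+IGF1, and at 1.90, 2.94 and 3.49 TPM in Ctrl, so its difference of 1.89 (adjusted p = 0.0445) holds no change in TMEM216 cells. Its call held in 3 of 19 alternative analyses, with an adjusted p of up to 0.754. It was named after its values were seen.

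Across all features the 2 responses, which share no library, were nearly unrelated (Pearson's r = 0.013 over 13071 features, which are not independent replicates). The median change was 0.018 in TMEM216 cells (-0.0027 without TMEM216 replicate 1) and -0.088 in Ctrl cells, so the median difference was 0.11. With quantile normalization that shift was 0.011 and with median-of-ratios scaling 0.0052. Without Ctrl+IGF1 replicate 3 the median was -0.024 in Ctrl cells and the median difference 0.047. Of all 12 libraries, that one had the largest ribosomal share, 16.9%. Differences of this size between the populations depend on the scaling and on single libraries. FOS at -1.79 is far outside that shift.

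**Figure D5:**
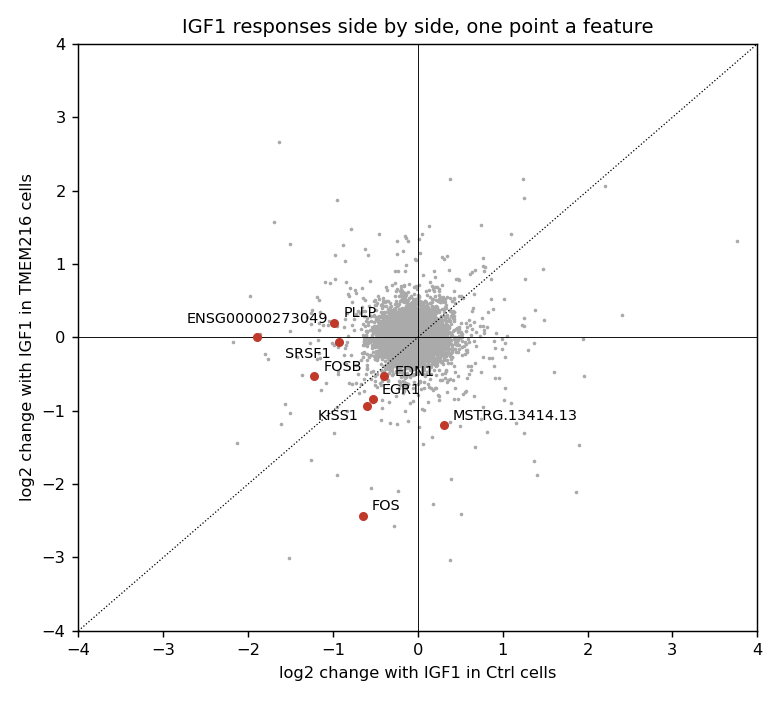
The log2 change with IGF1 in Ctrl cells (x axis) against that in TMEM216 cells (y axis), 1 point for each of 13071 tested features; the dotted line marks equal changes and red points are named. FOS at -2.43 in TMEM216 cells and -0.64 in Ctrl cells lies well below the line, and the cloud of all features shows no common slope.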

How the data were processed

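RNA of MDA231-LM2 cells was sequenced after an Illumina TruSeq RNA preparation, per the labels' protocols. The authors deposited TPM values. HISAT2, StringTie and RSEM are named, with no version, in the submitters' processing notes. Build, annotation and strandedness were not given in the sources used here, so genes carry no coordinates other than those of the RefSeq promoters. From the TPM, log2(TPM + 1) was computed, features reaching 1 TPM in 3 libraries were kept, and the 4 groups of 3 libraries were fitted together with limma 3.58.1 (R 4.3.3) with a mean-variance trend; the fit was tested on simulated data. Tests are two-sided and adjusted by Benjamini-Hochberg over 13071 features. Gene names and overlaps came from GENCODE annotation, and all 20443 Ensembl identifiers matched a name. Figures used matplotlib 3.10.9.

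The comparison and the gene lists were chosen with earlier results of these data known. The naming rule takes called genes with a proper symbol, a mean TPM of at least 5 and groups that do not overlap, the 5 of smallest p where a direction has none, 14 genes of the IGF1 pathway and its targets always (1 is not reported here), and up to 4 members of smallest p of each list described. Genes listed at 0 may be failed estimates. None of the 13 mitochondrially encoded genes listed was found among the features of the TPM table, so they could not be analysed. Alternatives were no filter, a filter at 5 TPM, a pseudocount of 0.1, scaling by quantiles or by median of ratios, no trend, only the 6 libraries, the replicate number as a block and leaving out each library. A further one, leaving out TMEM216 replicate 1 and Ctrl+IGF1 replicate 3 together, was chosen after seeing the data.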

Additional observations from a re-analysis of the deposited data

Results flagged for a closer look

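The IGF1 response of FOS differed between the populations by the test of the difference, at log2 -1.79 (limma adjusted p = 9.65e-04), with all 3 libraries with IGF1 below all 3 without it in each population. The difference for ENSG00000273049 was 1.89 (adjusted p = 0.0445), a call that held in 3 of 19 alternatives. This gene was listed at 0 in all libraries except the 3 labelled Ctrl.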

How the results depend on the processing

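FOS kept its call in all 22 alternatives for the response of TMEM216 cells (adjusted p from 2.74e-07 to 0.0131) and in all 20 for the difference. The count of called features in TMEM216 cells, 2 in the analysis reported, was 7 with a pseudocount of 0.1, 1 without the filter, 4 with a minimum TPM of 5, 1 with median-of-ratios scaling, and 1 to 6 on leaving out single libraries. The 6 came without Ctrl+IGF1 replicate 3 and 4 without TMEM216 replicate 3. Among these 4 were EGR1 and EDN1, which lay near the threshold in the analysis reported. MSTRG.279.10, also among them, did not lie near it there (limma adjusted p = 0.00982 without TMEM216 replicate 3). With only the 6 libraries compared, FOS and a pair of features of another assembled locus, MSTRG.8356.1 and MSTRG.8356.9, were called. The count for the difference, 2, was 1 with a pseudocount of 0.1, with a minimum TPM of 5 and with either quantile or median-of-ratios scaling, and 1 to 3 without single libraries. The count for Ctrl cells, 4, was 0 with a pseudocount of 0.1 or a minimum TPM of 5, 1 without the filter, 2 with quantile normalization and 1 to 5 without single libraries. With TMEM216 replicate 1 and Ctrl+IGF1 replicate 3 both left out, the counts were 1 for TMEM216 cells and 1 for the difference. The cause of these changes was not tested.

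The labels do not say whether same-numbered libraries were paired. Same-numbered TMEM216 and TMEM216+IGF1 libraries had correlations of their deviations from the group mean of 0.021, 0.0021 and -0.29. Libraries of different numbers had correlations from -0.27 to 0.28. Such values cannot settle whether the samples were paired. With the replicate number as a block the count of called features was 1 in TMEM216 cells, both with all 12 libraries and with only the 6, 1 for the difference and 1 in Ctrl cells. TPM holds no depth, so no limit from counting could be given.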
